A study of Bactrocera dorsalis with 3 samples.

Results

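Zn800, E4f1 and Adf1 are 3 of the 13489 gene models measured in young Bactrocera dorsalis embryos (the oriental fruit fly). They were located in the deposited count tables by scaffold, strand and start position and joined to the FPKM table by gene identifier, and all 3 were found. FPKM is the number of sequenced fragments scaled to transcript length and to the library total, so it allows levels of different genes to be set side by side. The genes were picked with their courses over the embryonic ages already known. Their levels and differences below are therefore a description, and no p-value is attached to them. The RNA came from whole embryos collected 0-1 hpo, 2-4 hpo or 5-8 hpo (hpo is hours after the egg was laid), with no genetic change or treatment named in the labels and 1 library per age. Differences between ages thus carry no check from replicates. Intervals given with folds and ratios are 95% intervals from the read counts that cover counting error only. In whole embryos a change in the share of a cell type and a change in RNA per cell cannot be told apart.

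A fly embryo starts with messenger RNA that the mother loaded into the egg. These maternal transcripts are broken down over the first hours while the embryo's own genes are switched on, a handover steered by DNA-binding proteins and RNA-binding proteins. Messenger RNA was selected here by its poly-A tail, and in early embryos tails of maternal RNA can lengthen or shorten without new transcription. A level may therefore reflect tail length as well as amount, and tail length was not measured.

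By its symbol, Zn800 corresponds to the vertebrate gene ZNF800, which encodes a nuclear protein with zinc fingers of the C2H2 type. E4f1 carries the symbol of the mammalian E4F transcription factor 1, a C2H2 zinc finger protein that binds the tumour suppressor p53 and is needed for survival of the early mouse embryo. Adf1 carries the symbol of the Drosophila Adh distal factor 1, a transcription factor of the MADF family that binds the promoter of the alcohol dehydrogenase gene and is needed for normal synapse growth and memory. The names come from a RefSeq gene table that gives symbols without descriptions, and the DNA-binding character of the 3 genes rests on these symbols alone.

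Zn800 lies on scaffold NW_011876254.1, minus strand, 302546 to 307804, with 3873 exonic bases in a span of 5259. E4f1 lies on NW_011876379.1, minus strand, 937768 to 943025, with 4687 exonic bases in a span of 5258. Adf1 lies on NW_011876367.1, plus strand, 914274 to 916433, with 1905 exonic bases in a span of 2160. All 3 models therefore hold some intronic sequence, 1386 bases in Zn800, 571 in E4f1 and 255 in Adf1. No source used here names the genome build of these positions. The RefSeq table classes all 3 as protein-coding and lists 1 transcript each for Zn800 and Adf1 and 4 for E4f1.

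Reads assigned to genes numbered 65069185 to 74817640 per library. The lowest count of any of the 3 genes was 1362 reads, for Adf1 at 2-4 hpo, where the counting error (SE) was 2.71% of the value. Of 2 genes of other tissues that could be found by name, the opsin gene Rh1 had 0 reads in each library, and the yolk protein gene VIT1 had an FPKM of 1.58, 3.02 and 1.13 in order of age.

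The courses of the 3 genes differed in shape. Zn800 had its highest level at 2-4 hpo, E4f1 had its lowest level at 5-8 hpo, and Adf1 had its lowest level at 2-4 hpo. In every library Zn800 was the most abundant of them, Adf1 came next and E4f1 was lowest.

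Zn800 stood at an FPKM of 126 at 0-1 hpo, 394 at 2-4 hpo and 145 at 5-8 hpo. These levels rest on 33362, 99382 and 42079 reads. Zn800 was thus an abundant transcript in newly laid eggs and a more abundant one at 2-4 hpo. In RPM, reads scaled to the library total with gene length left aside, it took 490 at 0-1 hpo, 1527 at 2-4 hpo and 562 at 5-8 hpo. Of the genes at an FPKM of 1 or more, 756 of 7046 had a higher FPKM than Zn800 at 0-1 hpo, 200 of 7114 at 2-4 hpo and 607 of 7773 at 5-8 hpo. Its place among the most abundant transcripts was highest at 2-4 hpo.

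E4f1 stood at an FPKM of 21.0 at 0-1 hpo, 6.98 at 2-4 hpo and 4.79 at 5-8 hpo. Its reads numbered 6414, 2039 and 1608. Each later library was lower than the one before it. The deposited E4f1 values correspond to a transcript length of 4488 bases, while the count tables list 4687. With the listed length its FPKM would be 20.1, 6.69 and 4.59 at the 3 ages. For Zn800 and Adf1 the length behind the FPKM equalled the listed one. The order of the 3 genes is the same with either length. Plain FPKM ratios of E4f1 between ages are not affected, since the length is the same in every library. Its differences on log2(FPKM + 1), given below, do depend on the length and were not recomputed with the listed one. E4f1 was above 33.2% of the genes at an FPKM of 1 or more at 0-1 hpo, 22.3% at 2-4 hpo and 17.2% at 5-8 hpo.

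Adf1 stood at an FPKM of 31.5 at 0-1 hpo, 11.0 at 2-4 hpo and 22.6 at 5-8 hpo. Its reads numbered 4083, 1362 and 3220. The low value at 2-4 hpo lay below both others, and the value at 5-8 hpo lay between the other two. The median FPKM of genes at 1 or more was 32.8, 23.4 and 21.4 at the 3 ages, so Adf1 was near that median in the youngest and oldest embryos. Of these genes, Adf1 exceeded 48.5% at 0-1 hpo, 31.3% at 2-4 hpo and 51.7% at 5-8 hpo.

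**Figure D1:**
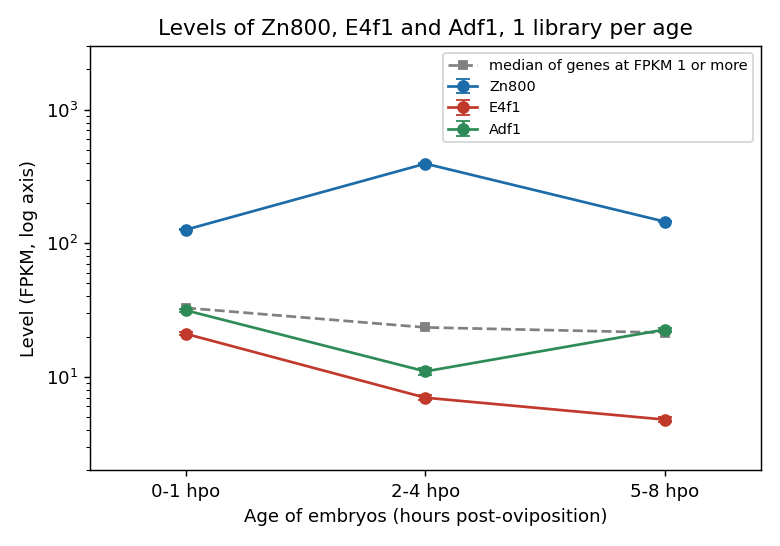
Levels of Zn800, E4f1 and Adf1 (FPKM, log axis) at the 3 ages, 1 library each; bars are 95% Poisson intervals of the read counts and the dashed line is the median of genes at an FPKM of 1 or more. Zn800 peaks at 394 at 2-4 hpo, where Adf1 is at its lowest value of 11.0, while E4f1 is lower in each later library.

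The plot of levels by age shows Zn800 above the median gene and E4f1 below it at every age. The count-based bars are small beside the distances between ages, but they hold no variation between embryos or collections.

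The comparison of 2-4 with 0-1 hpo asks which transcripts gained or lost in the hours after laying. Zn800 was 3.12-fold higher at 2-4 hpo (3.08 to 3.16). E4f1 was 3.00-fold lower (2.86 to 3.16) and Adf1 2.86-fold lower (2.69 to 3.05). The count intervals of the E4f1 and Adf1 folds overlap.

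On log2(FPKM + 1), the scale used to set the 3 genes among all genes, the differences were 1.63 for Zn800, -1.46 for E4f1 and -1.44 for Adf1. This scale understates changes of low genes such as E4f1. Of the 3 genes 1 was higher by at least 2-fold, as were 406 of the 7310 genes compared, 5.55%, and 2 were lower by at least 2-fold, as were 1721 genes, 23.5%. As these courses are what the genes were chosen by, nothing is read from their counts against these shares. The median difference of all genes compared was -0.21. Zn800 had 165 genes above it in this comparison, 2.26% of those compared. E4f1 and Adf1 had 1113 and 1140 genes with a larger loss, 15.2% and 15.6%.

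At 5-8 against 2-4 hpo Zn800 and E4f1 were lower and Adf1 was higher. Zn800 was 2.72-fold lower at 5-8 hpo (2.68 to 2.75). E4f1 was 1.46-fold lower (1.37 to 1.56). Adf1 was 2.06-fold higher (1.93 to 2.19), a fold whose interval includes 2. On log2(FPKM + 1) the differences were -1.44, -0.46 and 0.98 for Zn800, E4f1 and Adf1. Of the 3 genes 1, Zn800, was lower by at least 2-fold on that scale, as were 1719 of 8142 genes, 21.1%. Of the 3 genes 0 were higher by at least 2-fold, against 2471 genes, 30.3%, with Adf1 just under the limit. With a pseudocount of 0.1 in place of 1, Adf1 was at 1.03 and past it. The median difference of all genes compared was 0.11. Genes with a larger loss than Zn800 numbered 1087, 13.4% of those compared, and 2517 genes, 30.9%, had a larger gain than Adf1.

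Over the whole interval, from newly laid eggs to 5-8 hpo, only E4f1 of the 3 differed by at least 2-fold. It was 4.38-fold lower at 5-8 hpo (4.15 to 4.63), and 909 of 8148 genes, 11.2%, had a larger loss on log2(FPKM + 1). Adf1 was 1.39-fold lower (1.33 to 1.46), and Zn800 was 1.15-fold higher (1.13 to 1.17). On log2(FPKM + 1) the differences were 0.20 for Zn800, -1.92 for E4f1 and -0.46 for Adf1. On that scale 1 of the 3 genes, E4f1, was lower by at least 2-fold, as were 2215 of all genes compared, 27.2%, and 0 of the 3 were higher, against 1940 genes, 23.8%. The median difference of all genes compared was -0.17.

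**Figure D2:**
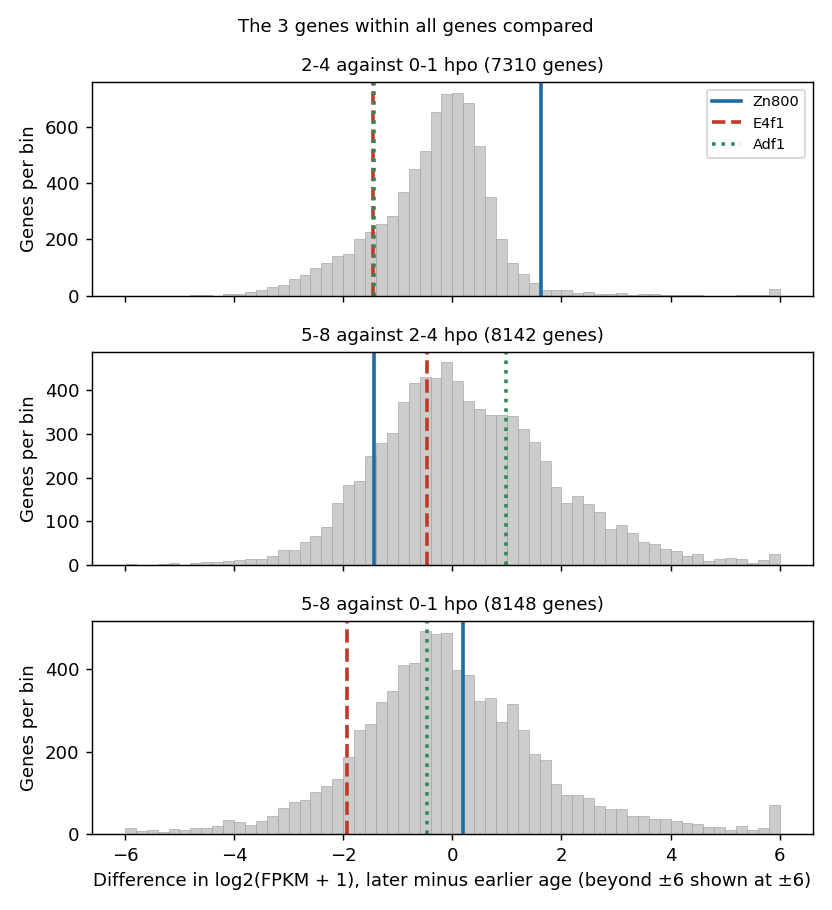
Histograms of the difference in log2(FPKM + 1), later minus earlier age, for all genes that reached an FPKM of 1 at either age, with lines at Zn800, E4f1 and Adf1. At 2-4 against 0-1 hpo Zn800 lies at 1.63 in the upper tail while E4f1 (-1.46) and Adf1 (-1.44) nearly coincide; at 5-8 against 2-4 hpo the lines are at -1.44, -0.46 and 0.98.

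The histograms place the genes within the whole transcriptome. Genes above an FPKM of 1 in every library numbered 6563, and their median difference was -0.22 at 2-4 against 0-1 hpo, -0.07 at 5-8 against 2-4 hpo and -0.35 at 5-8 against 0-1 hpo. Relative to these medians, Zn800 was at 1.85, -1.37 and 0.55 in the 3 comparisons, E4f1 at -1.24, -0.39 and -1.57, and Adf1 at -1.22, 1.05 and -0.11. The lower level of Adf1 at 5-8 than at 0-1 hpo was thus close to that of the median gene of this set. Relative to the median of all 8148 genes compared, Adf1 was at -0.29.

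Ratios between the 3 genes inside a library do not depend on how the libraries are scaled to each other. The ratio of Zn800 to E4f1 was 6.03 (5.87 to 6.19) at 0-1 hpo, 56.5 (54.1 to 59.0) at 2-4 hpo and 30.3 (28.9 to 31.9) at 5-8 hpo. This ratio was 9.37-fold larger at 2-4 than at 0-1 hpo (8.90 to 9.86). The ratio of Zn800 to Adf1 was 4.02 (3.89 to 4.15), 35.9 (34.0 to 37.9) and 6.43 (6.20 to 6.66) at the 3 ages. It was 8.93-fold larger at 2-4 than at 0-1 hpo (8.39 to 9.51) and 5.58-fold smaller at 5-8 than at 2-4 hpo (5.24 to 5.95).

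The balance of Adf1 and E4f1 was nearly the same in the youngest 2 libraries. The ratio of Adf1 to E4f1 was 1.57 (1.47 to 1.69) at 2-4 hpo and 1.50 (1.44 to 1.56) at 0-1 hpo, a 1.05-fold difference whose interval, 0.970 to 1.14, includes 1. At 5-8 hpo the ratio was 4.72 (4.44 to 5.01), 3.00-fold larger than at 2-4 hpo (2.74 to 3.28). With the listed length of E4f1, the ratio of Adf1 to E4f1 would be 1.57, 1.64 and 4.93 at the 3 ages.

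**Figure D3:**
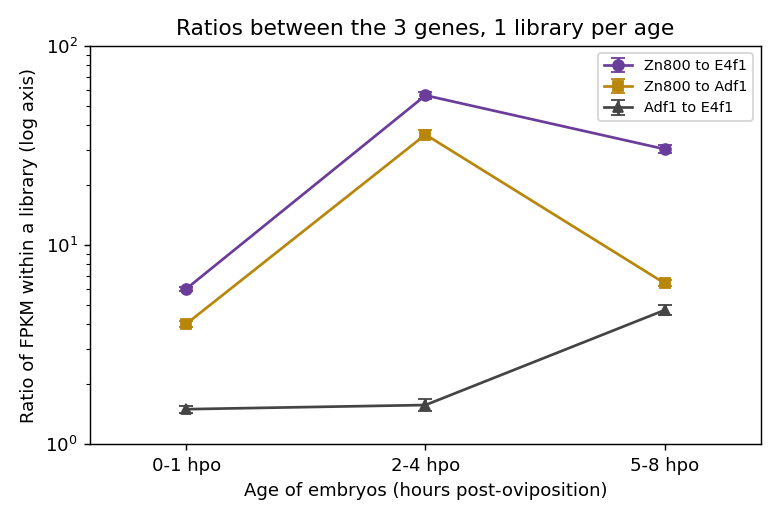
Ratios of FPKM between pairs of the 3 genes within each library (log axis), with 95% intervals from the read counts. Both ratios with Zn800 are highest at 2-4 hpo, at 56.5 and 35.9, and the ratio of Adf1 to E4f1 is 1.50 and 1.57 in the first 2 libraries and 4.72 at 5-8 hpo.

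The plot of ratios shows Adf1 and E4f1 in nearly the same balance at 0-1 and 2-4 hpo and apart at 5-8 hpo, where both ratios with Zn800 were smaller than at 2-4 hpo.

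Likeness to other genes was measured as the distance between courses, the square root of the summed squared differences of log2(FPKM + 1) at the 3 ages after each gene's mean over the ages was taken off. It was computed over 6535 other genes that reached an FPKM of 10 at any age, and it rests on 3 libraries. Few genes had a course close to that of Zn800 on this distance, which is not scaled to the size of a gene's changes. The median distance to all 6535 genes was also largest for Zn800, 1.73, against 1.49 for E4f1 and 1.38 for Adf1. Within a distance of 0.5 there were 20 genes for Zn800, 0.306% of the 6535, against 227 for E4f1, 3.47%, and 395 for Adf1, 6.04%. The genes were chosen with these courses known, so the shares are a description only. E4f1 and Adf1 lay 1.19 from each other and 2.24 and 2.29 from Zn800.

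Of 45 genes with an informative symbol at that level, the nearest to Zn800 was Pgbd4, named after a gene derived from a piggyBac transposase, at a distance of 0.69. Its FPKM was 34.3, 54.9 and 27.9 in order of age, a smaller peak at 2-4 hpo than that of Zn800. Next came the mitochondrial ATP synthase genes ATP8 (0.69) and ATP6 (0.80), Csga (0.94) and the mitochondrial gene ND6 (0.95). No named gene was within 0.5 of Zn800. Among all genes in the RefSeq table the nearest was LOC105226697 at a distance of 0.21, with an FPKM of 30.8, 106 and 43.6. It was followed by LOC105229747 at 0.25, with an FPKM of 229, 557 and 232. Both had their highest value at 2-4 hpo.

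The named gene nearest to E4f1 was L12r1 at a distance of 0.47, with an FPKM of 16.1, 6.21 and 2.34 at the 3 ages. Cc115 (0.58), Tysd1 (0.61), T126a (0.80) and So5a1 (0.83) followed. All 5 had their highest value at 0-1 hpo and their lowest at 5-8 hpo, as E4f1 did. On log2(FPKM + 1) LOC105233086 matched E4f1 most closely of all genes in the table, at a distance of 0.03. Its FPKM was far higher, 1651 at 0-1 hpo, 619 at 2-4 hpo and 442 at 5-8 hpo. Because this scale understates changes of low genes such as E4f1, the courses of both genes differed more in plain FPKM ratios. LOC105228236 was the next, at 0.10, with an FPKM of 46.4, 17.5 and 12.7.

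The named gene nearest to Adf1 was Cg050 at a distance of 0.32, with an FPKM of 56.9, 27.6 and 43.5 at the 3 ages. Akt1, a protein kinase of the insulin pathway, was at 0.64 with an FPKM of 109, 47.7 and 146. Rab40 (0.67) and Rab5b (0.76), named after small GTPases of membrane traffic, and Prkra (0.77), listed with the synonym R2D2 of a small RNA pathway protein, followed. All 5 were lowest at 2-4 hpo, as Adf1 was. LOC105227919 was at 0.02 from Adf1, with an FPKM of 44.8, 16.1 and 32.8, and LOC105228442 at 0.02, with 49.3, 17.7 and 35.0.

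The gene models beside each gene on its scaffold were examined, 2 on each side. Zn800 overlapped none of them. LOC105222806, on the same strand with its near end 3291 bases upstream of Zn800, had 1 read at 0-1 hpo, 13 at 2-4 hpo and 4137 at 5-8 hpo, an FPKM of 0.00356, 0.0484 and 13.4. Its neighbour LOC105222807, on the opposite strand, had an FPKM of 29.1, 7.33 and 11.96. Downstream, LOC105222804 had an FPKM of 6.54, 7.35 and 2.30 and LOC105222802 had 1.43, 1.78 and 0.592. At 2-4 against 0-1 hpo Zn800 was the only gene of these 5 that was at least 2-fold higher on log2(FPKM + 1), and its level was the highest of the 5 in each library.

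E4f1 overlapped LOC105229227, a model on the opposite strand, by 108 bases at its downstream end. That gene had an FPKM of 71.2, 31.3 and 24.8 at the 3 ages, 2.28-fold lower at 2-4 than at 0-1 hpo. On the other side, LOC105229230 starts 277 bases upstream on the opposite strand and had an FPKM of 43.3, 31.8 and 12.8. The outer neighbours were LOC105229226, at 111, 127 and 38.2, and LOC105229231, at 38.7, 27.8 and 27.1. All 4 neighbours were above E4f1 in every library and had lower levels at 5-8 than at 0-1 hpo, by between 1.43-fold and 3.39-fold, against 4.38-fold for E4f1.

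Adf1 overlapped LOC105228080, on the opposite strand, by 443 bases of its 2160-base span at its downstream end. LOC105228080 had 14454, 6799 and 7238 reads and an FPKM of 51.0, 25.1 and 23.3, so it was 2.03-fold lower at 2-4 than at 0-1 hpo. No source used here says whether reads were counted by strand. Without strand, reads from the overlap cannot be told apart. The part of LOC105228080 in the Adf1 values was not tested, nor was that of LOC105229227 in the E4f1 values. At 5-8 against 2-4 hpo LOC105228080 was 1.08-fold lower while Adf1 was 2.06-fold higher.

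The other neighbours of Adf1 differed among themselves. LOC105228079 starts 229 bases upstream on the opposite strand and had an FPKM of 55.1, 45.2 and 23.6 at the 3 ages. LOC105228078 had an FPKM of 90.7, 8.37 and 12.9, 10.8-fold lower at 2-4 than at 0-1 hpo and 1.55-fold higher at 5-8 than at 2-4 hpo. LOC105228082 had an FPKM of 82.2, 32.0 and 36.4. Of the 4 neighbours 2, LOC105228078 and LOC105228082, were lowest at 2-4 hpo, and neither differed between 2-4 and 5-8 hpo by as much as Adf1 did.

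**Figure D4:**
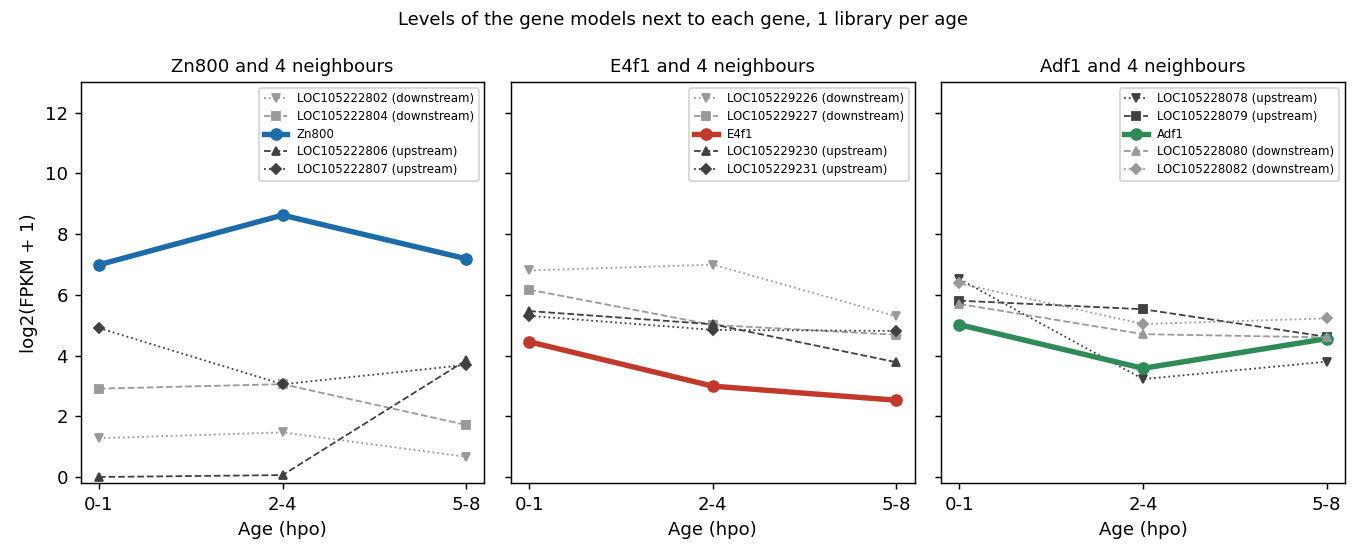
Levels on log2(FPKM + 1) at the 3 ages for Zn800, E4f1 and Adf1 (thick lines) and the 2 nearest gene models on each side, upstream in dark and downstream in light grey relative to the gene's own strand. Zn800 lies above its neighbours at every age, E4f1 lies below all 4 of its neighbours at every age, and Adf1 is lowest at 2-4 hpo.

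Both downstream neighbours of Zn800, which lie on its strand, also had their highest value at 2-4 hpo. Their gains at 2-4 against 0-1 hpo on log2(FPKM + 1) were 0.15 for LOC105222804 and 0.19 for LOC105222802, against 1.63 for Zn800. At 5-8 against 2-4 hpo LOC105222804 was 3.20-fold and LOC105222802 3.00-fold lower in FPKM, and Zn800 was 2.72-fold lower. At 5-8 against 0-1 hpo E4f1 and its 4 neighbours were all lower, as was the median of all genes compared (-0.17), while at 2-4 against 0-1 hpo LOC105229226 was 1.14-fold higher.

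Other genes with roles near those of the 3 could hardly be followed by name. Lists for C2H2 zinc finger genes and Adf-1-like genes matched only Zn800, E4f1 and Adf1 themselves. The lists for factors of zygotic genome activation, clearance of maternal RNA, maternal patterning, partners of mammalian E4f1, and eggshell genes matched 0 genes, because most gene models carry a number in place of a symbol. In addition, 4 named genes of nuclear regulation or DNA-related function were picked by hand after the names were seen, so their number is a choice.

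Of these 4, Taiman, named after a Drosophila coactivator of the ecdysone receptor, had an FPKM of 7.98 at 0-1 hpo, 1.79 at 2-4 hpo and 8.61 at 5-8 hpo. It was 4.45-fold lower at 2-4 than at 0-1 hpo and 4.80-fold higher at 5-8 than at 2-4 hpo, so its lowest value was at the age at which Adf1 was lowest. Bab2, named after bric-a-brac 2, a Drosophila transcription factor of leg and ovary development, had an FPKM of 1.85, 1.52 and 1.96. Zmat5, named after a zinc finger protein of the minor spliceosome in mammals, had 18.8, 14.7 and 18.2. Bab2 and Zmat5 differed by less than 2-fold between any ages, and Pgbd4 is given above.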

How the data were processed

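RNA of embryos of 3 ages was sequenced, 1 library per age. Per the labels' protocols, RNA was extracted with Trizol, selected on poly-T beads and primed with random hexamers. Per the submitters' processing notes, HISAT2 2.0.4 and HTSeq 0.9.1 were used; no source used here gives their settings, the strand setting, the build or the annotation. The authors deposited an FPKM table and whole-number read counts per gene with positions, per the file headers. Counts were used for depth, intervals, RPM (reads scaled to the library total) and implied lengths; a count of 0 allows up to 3 reads, 0.0401 to 0.0461 RPM here.

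Names came from a RefSeq table (assembly ASM2337382v1, possibly another build than the authors'); 11887 of 13489 identifiers matched. It has no descriptions, so lists were matched on symbols and synonyms only. No table used here held sequences of these genes.

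Differences between ages used log2(FPKM + 1) over genes that reached an FPKM of 1 at either age. Printed folds are plain FPKM ratios with exact conditional binomial intervals; intervals of ratios between genes are normal on the log scale. With 1 library per age no p-value was computed. Named genes are the 3 genes, the 5 nearest genes with an informative symbol and the 2 nearest of all genes in the table, the 2 models on each side, and list members. The genes and lists were chosen with earlier results of these data known. Procedures were tested on simulated counts that held counting error only, so the test does not cover variation between embryos or collections. Alternatives were a pseudocount of 0.1, other filters, RPM, TPM (FPKM scaled to a fixed sum per library), median-of-ratios scaling and the listed length of E4f1, the last added after seeing the data. Python 3.11.15, numpy 2.4.6, pandas 2.3.3, scipy 1.17.1 and matplotlib 3.10.9 were used.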

Additional observations from a re-analysis of the deposited data

How the results depend on the processing

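All 36 alternative values of the log2 differences of Zn800, E4f1 and Adf1 kept their direction, and 34 stayed on the same side of 2-fold. The exceptions were Adf1 at 5-8 against 2-4 hpo with a pseudocount of 0.1 (1.03) and in RPM (1.01), in place of 0.98. The limit for a moved value was the distance from the middle of the log2 counting interval to its end. Values that moved by more than this follow, for Zn800, E4f1 and Adf1. On the TPM scale they were 1.54, -1.61 and -1.56 at 2-4 against 0-1 hpo, -1.48 for Zn800 at 5-8 against 2-4 hpo, and 0.063, -2.14 and -0.60 at 5-8 against 0-1 hpo. With median-of-ratios scaling they were 1.84, -1.27 and -1.24 at 2-4 against 0-1 hpo, -1.47 for Zn800 at 5-8 against 2-4 hpo, and 0.37, -1.77 and -0.30 at 5-8 against 0-1 hpo. For E4f1, a pseudocount of 0.1 gave -1.57 at 2-4 and -2.11 at 5-8 against 0-1 hpo, and RPM gave -1.56 and -2.08. The median of genes above an FPKM of 1 throughout shifted with scaling, at 5-8 against 0-1 hpo to -0.49 on TPM and -0.19 with median-of-ratios; relative to it Zn800 was at 0.56 on both. All 36 counts of genes past 2-fold were within 1.5 times the reported ones; without the filter they were equal by construction, since a gene below an FPKM of 1 in both libraries cannot reach 2-fold. With a pseudocount of 0.1, 4 of the 5 named genes nearest to Zn800 and all 5 for E4f1 and Adf1 were shared. No paired analysis was possible because every age was represented by a single library. Depth does not limit these genes, which had at least 1362 reads; the missing replicates do.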
